A study of Mus musculus with 12 samples.

Results

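The 38 genes described here encode chaperones, chaperonin subunits and cochaperones of the cytosol and mitochondria, and the transcription factor that drives many of them under heat shock. They were taken from a list of names, drawn up with earlier results of these data known, and all 38 were found among the 24346 gene symbols of the data. All 38 passed the filter on low values (at least 1 FPKM in at least 2 libraries), which 10797 of the 24346 symbols passed. By role they comprise 4 HSP70 and HSP110 proteins of the cytosol (Hspa8, Hspa14, Hspa4, Hsph1) and 4 J-domain cochaperones (Dnaja1, Dnaja2, Dnajb1, Dnajb6). A further 3 are HSP70 cochaperones of other kinds (Bag1, Bag3, St13), 2 are HSP90 proteins (Hsp90aa1, Hsp90ab1) and 8 are HSP90 cochaperones (Stip1, Ahsa1, Cdc37, Ptges3, Fkbp4, Fkbp5, Ppid, Chordc1). The chaperonin TRiC, also called CCT, is represented by 8 subunits (Tcp1, Cct2, Cct3, Cct4, Cct5, Cct6a, Cct7, Cct8) and prefoldin by 4 (Pfdn1, Pfdn2, Pfdn4, Vbp1). The remaining 5 genes are 4 mitochondrial chaperones (Hspa9, Hspd1, Hspe1, Dnaja3) and 1 transcription factor (Hsf1).

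Chaperones bind proteins that are not yet folded. HSP70 proteins bind short hydrophobic stretches in cycles of ATP hydrolysis, which J-domain proteins start and nucleotide exchange factors such as the BAG proteins end. HSP90 takes over more nearly folded clients, among them kinases and steroid receptors, and prefoldin hands actin and tubulin to the closed chamber of TRiC. In mitochondria, HSPA9 pulls proteins in and HSP60, encoded by Hspd1, folds them under a lid of HSP10, encoded by Hspe1. A B cell that is activated leaves a resting state with little protein synthesis and starts to grow, which raises the load of new proteins to be folded.

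The series measured RNA of mouse marginal zone B cells, which line the marginal sinus of the spleen, kept for 4 h in culture conditions that formed 6 groups of 2 libraries. Trpm5-/- cells lack the calcium-activated cation channel TRPM5 and were compared with wild-type cells, each genotype with lipopolysaccharide (LPS, 10 µg/mL, a ligand of Toll-like receptor 4), with anti-IgM (10 µg/mL, an antibody that cross-links the B cell receptor) or with neither. The labels give no strain, age or number of mice and do not name the deleted part of Trpm5. Nor do they say if both libraries of a group were made from different mice or cultures, so a p-value here reflects library-to-library spread that may be technical.

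Values are FPKM (fragments per kilobase of transcript, scaled for library size), a scale per transcript length on which levels of different genes can be set side by side. Library sums lay between 563461 and 805373 FPKM, and depth relative to wild-type unstimulated replicate 1, taken from the value of a single fragment, lay between 0.645 and 1.06. Trpm5 itself was too low to check the labels firmly, at 0 to 0.0303 FPKM in the Trpm5-/- libraries and 0.0196 to 0.434 FPKM in the wild-type libraries. All 6 pan-B markers and all 7 marginal zone markers were above 0 in every group. This does not tell marginal zone from follicular B cells, because all 4 follicular markers were above 0 in every group too. In wild-type cells without stimulus the follicular markers summed to 1248 to 1302 FPKM and the marginal zone markers to 434 to 463 FPKM. Summed T cell markers reached at most 1.38 FPKM and summed platelet markers at most 1.74 FPKM in any library, whereas summed erythroid markers lay between 91.7 and 667 FPKM. Macrophage and monocyte markers summed to 16.6 to 33.6 FPKM (without stimulus, 23.1 to 25.6 FPKM in Trpm5-/- and 30.3 to 33.6 FPKM in wild-type cells) and dendritic cell markers to 6.83 to 76.5 FPKM.

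Heat shock factor 1 binds alternating GAA and TTC units, each separated from the next by 2 bases, and the RefSeq promoter sequences (GRCm38.p6) show which of the genes carry such units close to their start. Windows from 250 bases before to 50 bases after a start were on hand for 29 of the 38 genes, and not for Hspa9, St13, Hsf1, Hspa8, Hsp90aa1, Ppid, Pfdn1, Hsp90ab1 and Cct4. The 2-unit motifs GAANNTTC and TTCNNGAA each read the same on both strands, and they overlap where 3 units follow each other. A window with at least 1 of them was held by 12 of the 29 genes (41.4%), against 4587 of 27025 genes in the whole table (17%). A run of 3 alternating units was held by 5 of the 29 (17.2%), against 179 of the 27025 (0.7%): Hspd1, Hspe1, Hsph1, Dnajb6 and Chordc1. The motif CACGTG, an E-box, was held by 3 of the 29 (10.3%; Hspd1, Hsph1 and Fkbp5), against 8.1% of all genes. Stretches of 30 bases are shown for 8 of the 12 genes, with the units in capitals, because the chaperone genes hold them in a larger share of windows than the table as a whole, a description for which no test was made. They are 1 stretch with at least 3 units for each of the 5 genes that have one, with Hspd1 and Hspe1 sharing theirs. As examples, those of 3 of the 7 genes with 2 units are added. The matches of Dnaja1, Cct6a, Cct2 and Cdc37 and the second stretches of Hsph1 and Chordc1 are not printed. The first stretch lies between the head-to-head genes Hspd1 and Hspe1 and belongs to both.
Hspe1 and Hspd1, chr1:55088053-55088082, plus strand, 89 bases before the Hspe1 start: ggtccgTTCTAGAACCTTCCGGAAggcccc
Hsph1, chr5:149636280-149636309, minus strand, from base 16 after a start: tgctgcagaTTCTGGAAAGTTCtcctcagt
Dnajb6, chr5:29735843-29735872, plus strand, 46 bases before a start: cagctccgaGAATCTTCCGGAAcgctagac
Chordc1, chr9:18292259-18292288, plus strand, 4 bases before the start: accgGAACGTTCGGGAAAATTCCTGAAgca
Cct5, chr15:31601862-31601891, minus strand, 34 bases before a start: acagcggccgaTTCCAGAAgctactctgcg
Fkbp4, chr6:128438789-128438818, minus strand, 151 bases before the start: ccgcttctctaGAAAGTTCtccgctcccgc
Bag3, chr7:128523603-128523632, plus strand, from base 43 after the start: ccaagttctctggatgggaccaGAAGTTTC

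The units of the last 3 genes are single matches of 2 units. A match is a description of letters in these windows and not a site shown to be bound. With LPS in Trpm5-/- cells the median log2 difference from no stimulus was 1.47 over the 5 genes with 3 units, 1.19 over the 7 with 2 units only and 1.32 over the 17 with no match, and in wild-type cells it was 1.5, 1.26 and 1.42. With anti-IgM the medians over these sets were 0.63, 0.72 and 0.67 in Trpm5-/- cells and 0.79, 0.69 and 0.64 in wild-type cells. Without stimulus, the median difference between Trpm5-/- and wild-type cells was 0.15, 0.20 and 0.20 over the same 3 sets.

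Chaperone transcripts were abundant in every group, and their summed level was highest with LPS. Together the 38 genes accounted for 2.32% ± 0.0771 of the FPKM of Trpm5-/- cells and 2.14% ± 0.0728 of wild-type cells with LPS (SD, n = 2 each, as for all group values). With anti-IgM they accounted for 1.85% ± 0.0170 in Trpm5-/- cells and 1.68% ± 0.0488 in wild-type cells. Without stimulus the shares were 1.20% ± 0.0368 in Trpm5-/- cells and 0.986% ± 0.0200 in wild-type cells. In bulk libraries such as these, fewer cells of a type and less RNA per cell cannot be told apart.

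Averaged over the 12 libraries, the levels ran from 2055 FPKM for Hspa8, the constitutive cytosolic HSP70, to 1.05 FPKM for Bag3, an HSP70 exchange factor induced by proteotoxic stress. The runner-up was Hsp90ab1, the constitutive HSP90, at 1647 FPKM. No other gene of the set averaged above 1000 FPKM, and 28 of the 38 averaged at least 100 FPKM. Hspa8 ranked between 11 and 94 among all gene symbols, counted from the highest, in the 12 libraries.

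**Figure D1:**
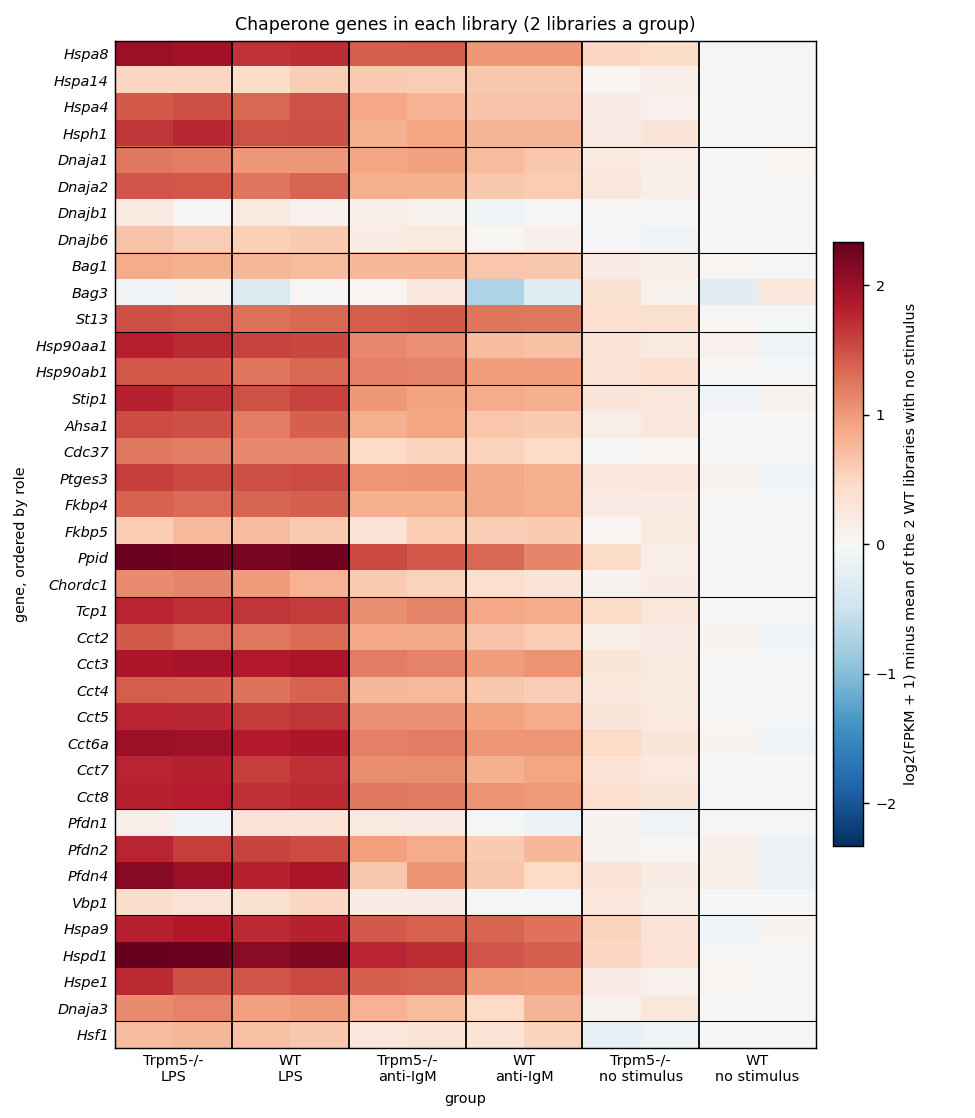
Heat map of the 38 chaperone genes (rows, ordered by role) in the 12 libraries (columns, 2 a group), as log2(FPKM + 1) minus the mean of the 2 wild-type libraries without stimulus. Red fills the LPS columns and, more weakly, the anti-IgM columns in nearly all rows, and the rows of Dnajb1, Bag3, Pfdn1 and Vbp1 stay pale.

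Loss of Trpm5 came with higher chaperone transcripts in cells without stimulus. Differences were tested with limma on log2(FPKM + 1), with Benjamini-Hochberg adjustment over all 10797 genes and a threshold of 0.05. Of the 38 genes, 17 were higher in Trpm5-/- cells and 0 were lower, against a background of 4.45% of all tested genes higher and 1.66% lower. The median difference of the 38 was 0.21 on the log2 scale, against 0.02 over all tested genes. Both Trpm5-/- libraries lay above both wild-type libraries for 31 of the 38 genes, which held for 28.1% of all tested genes. The largest of the called differences, that of Hspa8, was a 1.37-fold ratio of means.

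Hspa8 (chromosome 9, 40800984 to 40810087, plus strand, mm10) had 1203 and 1167 FPKM in Trpm5-/- cells, against 878 and 847 FPKM in wild-type cells. The groups did not overlap, and the log2 difference was 0.46 ± 0.05 (SE, adjusted p = 0.00154). The call for Hspa8 was kept under all 20 alternative settings, with adjusted p between 0.00071 and 0.0331. The other 16 calls described next were less stable.

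The mitochondrial matrix chaperones followed. Hspd1 had 226 and 204 FPKM in Trpm5-/- cells, against 164 and 159 FPKM in wild-type cells, a log2 difference of 0.41 ± 0.06 (adjusted p = 0.00621). Hspa9, the HSP70 that drives import into mitochondria, had 207 and 178 FPKM in Trpm5-/- cells, against 139 and 151 FPKM in wild-type cells (0.41 ± 0.07, adjusted p = 0.0142). Neither gene's groups overlapped. Hspe1, the cofactor of Hspd1, had 194 and 183 FPKM in Trpm5-/- cells, against 176 and 164 FPKM in wild-type cells, and its difference of 0.15 ± 0.08 did not pass (adjusted p = 0.318).

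Of the 8 TRiC subunits, 7 were higher in Trpm5-/- cells, with log2 differences between 0.23 and 0.37. Cct6a had 291 and 258 FPKM in Trpm5-/- cells, against 223 and 202 FPKM in wild-type cells (0.37 ± 0.07, adjusted p = 0.0121). Tcp1, the founding subunit, had 158 and 140 FPKM in Trpm5-/- cells, against 116 and 116 FPKM in wild-type cells (0.36 ± 0.06, adjusted p = 0.0115). Cct8 had 322 and 299 FPKM in Trpm5-/- cells, against 240 and 251 FPKM in wild-type cells (0.34 ± 0.05, adjusted p = 0.00661). In none of these subunits did the groups overlap. Cct7 had 212 and 199 FPKM in Trpm5-/- cells, against 170 and 168 FPKM in wild-type cells (0.28 ± 0.05, adjusted p = 0.0171). Cct5, the most abundant subunit, had 382 and 367 FPKM in Trpm5-/- cells, against 321 and 307 FPKM in wild-type cells (0.26 ± 0.05, adjusted p = 0.0168). Cct3 and Cct4 passed as well, with log2 differences of 0.25 ± 0.05 (adjusted p = 0.0248) and 0.23 ± 0.05 (adjusted p = 0.0291). Cct4 had 228 and 224 FPKM in Trpm5-/- cells, against 190 and 195 FPKM in wild-type cells. Cct2, the remaining subunit, had 162 and 167 FPKM in Trpm5-/- cells and 152 and 139 FPKM in wild-type cells (0.18 ± 0.06, adjusted p = 0.139).

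Both HSP90 genes were higher in Trpm5-/- cells without stimulus. Hsp90ab1 had 1061 and 1095 FPKM in Trpm5-/- cells, against 861 and 833 FPKM in wild-type cells (0.35 ± 0.05, adjusted p = 0.00661). Hsp90aa1, the stress-inducible HSP90, had 192 and 181 FPKM in Trpm5-/- cells, against 165 and 144 FPKM in wild-type cells (0.27 ± 0.07, adjusted p = 0.0399). Among the 8 HSP90 cochaperones, 3 passed. Stip1, the adaptor that joins HSP70 to HSP90, had 105 and 103 FPKM in Trpm5-/- cells, against 81.8 and 91.1 FPKM in wild-type cells (0.27 ± 0.06, adjusted p = 0.0383). Ptges3, the cochaperone p23, had 252 and 255 FPKM in Trpm5-/- cells, against 222 and 203 FPKM in wild-type cells (0.25 ± 0.06, adjusted p = 0.0257). Fkbp4, an immunophilin, had 98.6 and 99.0 FPKM in Trpm5-/- cells, against 87.6 and 84.7 FPKM in wild-type cells (0.20 ± 0.05, adjusted p = 0.0394). The genotypes did not overlap in any of the 3. St13, the HSP70-interacting protein HIP, had 101 and 98.9 FPKM in Trpm5-/- cells, against 78.9 and 74.4 FPKM in wild-type cells (0.38 ± 0.05, adjusted p = 0.00263). The last call was Hsph1, an HSP110 exchange factor, at 35.9 and 39.0 FPKM in Trpm5-/- cells, against 31.2 and 31.6 FPKM in wild-type cells (0.24 ± 0.06, adjusted p = 0.049). The 4 J-domain cochaperones and the 4 prefoldin subunits gave no call, with differences from -0.05 to 0.19 and from -0.01 to 0.25.

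Under the 20 alternative settings, St13 was called 19 times, Hspd1, Hsp90ab1 and Cct8 18 times each, Hspa9 and Cct6a 17, Tcp1, Cct5 and Ptges3 16, Cct7 15, Cct3 14 and Cct4 11. Hsp90aa1 was called 8 times, Fkbp4 7, Stip1 6 and Hsph1 3. The number of calls depended on the libraries fitted: it was 3 without Trpm5-/- replicate 1, 9 without Trpm5-/- replicate 2, 9 without wild-type replicate 1, 7 without wild-type replicate 2, 10 after quantile normalization and 1 (Hspa8) when the 4 unstimulated libraries were fitted alone. Other transcripts moved with the same comparison. The nuclear RNAs Malat1 and Neat1, both of the 2 listed, summed to 297 to 305 FPKM in Trpm5-/- cells and 389 to 432 FPKM in wild-type cells, with log2 differences of -0.45 ± 0.10 (adjusted p = 0.0262) and -0.42 ± 0.10 (adjusted p = 0.0412). The 7 marginal zone markers summed to 668 to 685 FPKM in Trpm5-/- cells and 434 to 463 FPKM in wild-type cells, with none at 0 throughout a group. Cd9 made up most of both sums, averaging 471 FPKM in Trpm5-/- cells and 276 FPKM in wild-type cells. Cd1d1 went the other way, at 14.1 and 14.8 FPKM. The 4 follicular markers summed to 1013 to 1049 FPKM in Trpm5-/- cells and 1248 to 1302 FPKM in wild-type cells, and the 3 plasma cell markers to 58.9 to 72.3 FPKM in Trpm5-/- cells and 44.9 to 53.0 FPKM in wild-type cells. Of the plasma cell markers, Jchain averaged 40.9 FPKM in Trpm5-/- cells and 22.9 FPKM in wild-type cells, and Prdm1 10.2 and 7.63 FPKM. Sdc1 went the other way, at 14.4 and 18.3 FPKM. The 6 pan-B markers summed to 5197 to 5201.5 FPKM in Trpm5-/- cells and 5409 to 5652 FPKM in wild-type cells. The part of these in the chaperone differences was not tested.

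**Figure D2:**
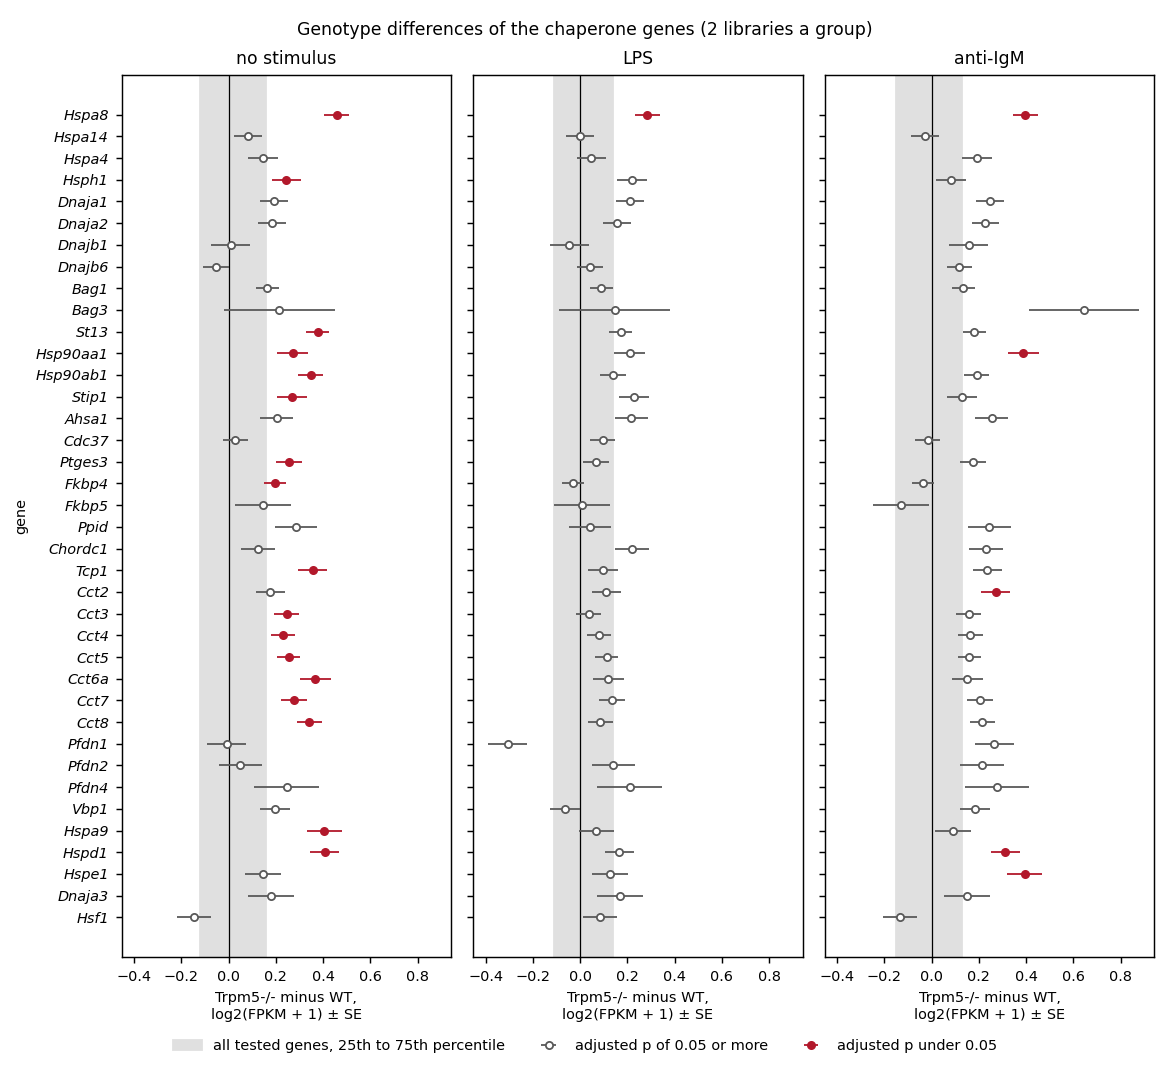
Difference between Trpm5-/- and wild-type cells for each chaperone gene, in log2(FPKM + 1) with its standard error, without stimulus (left), with LPS (middle) and with anti-IgM (right); filled red points have an adjusted p under 0.05 and grey bands span the 25th to 75th percentile of all tested genes. Most points lie to the right of 0 in all panels, with 17 filled without stimulus, 1 with LPS and 5 with anti-IgM.

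With anti-IgM, 5 of the 38 genes were higher in Trpm5-/- cells and 0 were lower, against 1.91% higher and 1.92% lower among all tested genes. Hspa8 had 2278 and 2291 FPKM in Trpm5-/- cells, against 1734 and 1738 FPKM in wild-type cells (0.40 ± 0.05, adjusted p = 0.00259). Hspe1 had 452 and 439 FPKM in Trpm5-/- cells, against 341 and 337 FPKM in wild-type cells (0.39 ± 0.08, adjusted p = 0.0192). Hsp90aa1 had 337 and 325 FPKM in Trpm5-/- cells, against 256 and 249 FPKM in wild-type cells (0.39 ± 0.07, adjusted p = 0.0102). For each of these the libraries of a genotype lay close together and the genotypes lay apart. Hspd1 had 554 and 533 FPKM in Trpm5-/- cells, against 451 and 424 FPKM in wild-type cells (0.31 ± 0.06, adjusted p = 0.0212). Cct2 had 273 and 270 FPKM in Trpm5-/- cells, against 231 and 219 FPKM in wild-type cells (0.27 ± 0.06, adjusted p = 0.04). The median of the 38 differences was 0.19 (0.09 after quantile normalization and 0.10 after scaling to equal sums), and both Trpm5-/- libraries lay above both wild-type libraries for 31 of the 38, against 25.8% of all tested genes. The number of calls was 1 when any of the 4 libraries compared was left out, 2 after quantile normalization and 3 after scaling to equal sums. Under the 20 settings Hspa8 was called 19 times, and the call was lost after quantile normalization (0.09, adjusted p = 0.465). Hspe1 and Hsp90aa1 were called 16 times, Hspd1 14 and Cct2 9. Malat1 and Neat1 summed to 204 to 213 FPKM in Trpm5-/- cells and 259 to 294 FPKM in wild-type cells. The 7 marginal zone markers summed to 659 to 672 FPKM in Trpm5-/- cells and 506 to 518 FPKM in wild-type cells, and the 3 plasma cell markers to 47.7 to 55.0 FPKM in Trpm5-/- cells and 30.98 to 32.8 FPKM in wild-type cells. Of the marginal zone markers, Cd9 averaged 381 FPKM in Trpm5-/- cells and 244 FPKM in wild-type cells. Cr2 (52.1 against 57.8 FPKM) and Cd1d1 (2.79 against 4.31 FPKM) went the other way. Of the plasma cell markers, Jchain averaged 38.4 against 16.9 FPKM and Prdm1 8.51 against 7.94 FPKM, whereas Sdc1 was lower, at 4.42 against 7.10 FPKM. The 4 follicular markers summed to 829.7 to 851 FPKM in Trpm5-/- cells and 964 to 969 FPKM in wild-type cells, and the 6 pan-B markers to 1771 to 1793 FPKM in Trpm5-/- cells and 2029.6 to 2044 FPKM in wild-type cells. The 4 erythroid markers found in the data summed to 91.7 to 186 FPKM in Trpm5-/- cells and 361 to 501 FPKM in wild-type cells. None of these markers was at 0 throughout a group, and their part was not tested here.

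With LPS, 1 of the 38 genes, Hspa8, passed, with 3499.8 and 3376 FPKM in Trpm5-/- cells, against 2790.1 and 2856 FPKM in wild-type cells. Its log2 difference was 0.28 ± 0.05 (adjusted p = 0.0158), a 1.22-fold ratio of means, and 0 genes were lower, against 1.82% higher and 1.78% lower among all tested genes. At 2.63% of 38, that count is close to the background. The median of the 38 differences was 0.11, and 27 of the 38 genes had both Trpm5-/- libraries above both wild-type libraries, against 26.5% of all tested genes. The Hspa8 call was lost without Trpm5-/- replicate 1, without wild-type replicate 1, without wild-type replicate 2, after quantile normalization and when the 4 LPS libraries were fitted alone. Malat1 and Neat1 summed to 136 to 153 FPKM in Trpm5-/- cells and 143 to 168 FPKM in wild-type cells, the 7 marginal zone markers to 647 to 682 FPKM in Trpm5-/- cells and 419 to 434 FPKM in wild-type cells. Of these 7, Cd9 averaged 439 FPKM in Trpm5-/- cells and 246 FPKM in wild-type cells. Cr2 went the other way, at 72.7 and 86.9 FPKM. The 3 plasma cell markers summed to 31.7 to 37.5 FPKM in Trpm5-/- cells and 20.6 to 20.6 FPKM in wild-type cells, and the 4 erythroid markers to 227 to 264 FPKM in Trpm5-/- cells and 328 to 364 FPKM in wild-type cells. Of the plasma cell markers, Jchain averaged 27.2 FPKM in Trpm5-/- cells and 14.4 FPKM in wild-type cells, and Prdm1 6.05 and 4.52 FPKM. Sdc1 was lower, at 1.36 and 1.64 FPKM. The 4 follicular markers summed to 2749.8 to 2788 FPKM in Trpm5-/- cells and 3101.5 to 3229 FPKM in wild-type cells, and the 6 pan-B markers to 2829.5 to 2894 FPKM in Trpm5-/- cells and 3432 to 3500.2 FPKM in wild-type cells. Their part was not tested.

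Across the 3 conditions, 19 of the 38 genes were higher in Trpm5-/- cells at least once, and Hspa8 was the gene that passed in all 3 (called under 20, 15 and 19 of the 20 alternative settings without stimulus, with LPS and with anti-IgM). Hspd1 and Hsp90aa1 passed without stimulus and with anti-IgM. For 29 of the 38 genes the difference was above 0 in all 3 conditions, which includes differences that did not pass. The shares of all tested genes with these patterns over the 3 conditions were not counted. Whether the genotype difference changed with a stimulus was tested by interaction terms. None of the 38 genes passed in limma for LPS (lowest adjusted p = 0.31) or for anti-IgM (lowest adjusted p = 0.482), against 0.102% and 0.0278% of all tested genes. At an unadjusted p under 0.05 in limma there were 14 of the 38 for LPS and 7 for anti-IgM, against 1113 and 857 of the 10797 tested genes. The interaction with LPS was negative for 31 of the 38 genes, including all 8 TRiC subunits (-0.26 to -0.07), and its median was -0.09 over the 38 and -0.02 over all tested genes. The share of all tested genes with a negative interaction was not counted, but a median below 0 means that most of them were negative too. A genotype difference called without stimulus and not with LPS is therefore not shown to differ between these conditions.

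**Figure D3:**
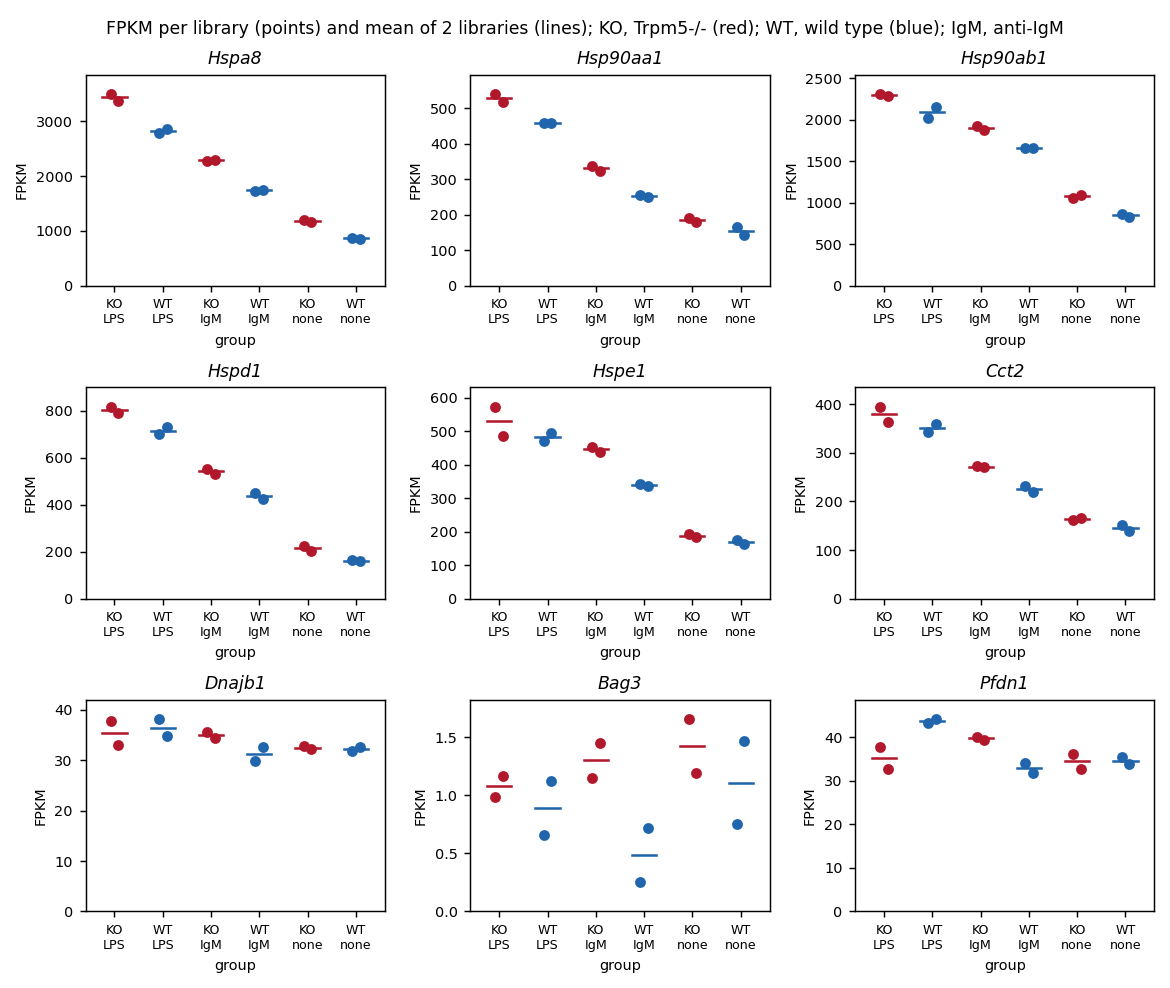
FPKM in each library (points) and mean of 2 libraries (lines) for 9 chaperone genes, with Trpm5-/- (KO, red) left of wild type (WT, blue) for LPS, anti-IgM (IgM) and no stimulus (none); each vertical axis starts at 0. Hspa8 stands at 3376 to 3499.8 FPKM in Trpm5-/- cells with LPS and 847 to 878 FPKM in wild-type cells without stimulus, whereas Dnajb1 stays between 29.9 and 38.1 FPKM.

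LPS raised nearly all of the chaperone genes in both genotypes. In Trpm5-/- cells 35 of the 38 were higher than without stimulus and 0 were lower, against 34.8% higher and 33.8% lower among all tested genes. In wild-type cells 36 were higher and 0 lower, against 35% and 34.4%. The median difference was 1.29 in Trpm5-/- cells and 1.35 in wild-type cells, while the median of all tested genes was -0.02 in each. The difference was at least 1, a doubling on the log2(FPKM + 1) scale, for 27 of the 38 genes in each genotype. Over all tested genes the 75th percentile was 0.58 in Trpm5-/- cells and 0.59 in wild-type cells, and the 95th was 1.56 and 1.62. After quantile normalization the medians were 0.77 and 0.89. Scaling to equal sums moved the median of all tested genes to -0.37 in Trpm5-/- cells and -0.36 in wild-type cells, and the 38 genes then stood 1.25 and 1.32 above it. The counts called were within 1.5 times of these under every alternative. Several marker lists moved with LPS as well. The 4 dendritic cell markers summed to 70.5 to 70.9 FPKM with LPS and 6.83 to 7.996 FPKM without stimulus in Trpm5-/- cells, and to 71.6 to 76.5 FPKM with LPS and 8.88 to 8.91 FPKM without stimulus in wild-type cells; Siglech, 1 of the 4, was at 0 without stimulus in both genotypes. The 4 follicular markers summed to 2749.8 to 2788 FPKM with LPS and 1013 to 1049 FPKM without stimulus in Trpm5-/- cells, and to 3101.5 to 3229 FPKM with LPS and 1248 to 1302 FPKM without stimulus in wild-type cells. The 6 pan-B markers were lower, at 2829.5 to 2894 FPKM with LPS and 5197 to 5201.5 FPKM without stimulus in Trpm5-/- cells, and at 3432 to 3500.2 FPKM with LPS and 5409 to 5652 FPKM without stimulus in wild-type cells. Malat1 and Neat1 together were at 136 to 153 FPKM with LPS and 297 to 305 FPKM without stimulus in Trpm5-/- cells, and at 143 to 168 FPKM with LPS and 389 to 432 FPKM without stimulus in wild-type cells. The part of these in the chaperone responses was not tested.

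The largest LPS response belonged to Ppid, which encodes cyclophilin 40, an HSP90 cochaperone. It had 276 and 267 FPKM with LPS and 74.6 and 61.6 FPKM without stimulus in Trpm5-/- cells, and 260 and 267 FPKM with LPS and 55.0 and 55.9 FPKM without stimulus in wild-type cells. The log2 differences were 1.99 ± 0.09 (adjusted p = 1.7e-08) in Trpm5-/- cells and 2.23 ± 0.09 (adjusted p = 7.04e-09) in wild-type cells. Hspd1 had 818 and 789 FPKM with LPS in Trpm5-/- cells and 702 and 731 FPKM with LPS in wild-type cells, differences of 1.90 ± 0.06 (adjusted p = 2.38e-09) and 2.14 ± 0.06 (adjusted p = 1.04e-09). Both genes were far outside the spread of their libraries.

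Pfdn4, a prefoldin subunit, had 88.7 and 81.8 FPKM with LPS and 24.9 and 22.3 FPKM without stimulus in Trpm5-/- cells (1.81 ± 0.14, adjusted p = 8.23e-07), and 71.1 and 76.1 FPKM with LPS and 21.7 and 17.9 FPKM without stimulus in wild-type cells (1.85 ± 0.14, adjusted p = 6.67e-07). Hspa9 had 512 and 533 FPKM with LPS in Trpm5-/- cells and 488 and 508 FPKM with LPS in wild-type cells, differences of 1.44 ± 0.07 (adjusted p = 5.03e-08) and 1.77 ± 0.07 (adjusted p = 1.02e-08). Hspa8, at 1.54 ± 0.05 (adjusted p = 2.95e-09) in Trpm5-/- cells and 1.71 ± 0.05 (adjusted p = 1.3e-09) in wild-type cells, was 2.90 and 3.27 times its level without stimulus. Hspa8 gained more FPKM than any other gene of the set. Without stimulus it averaged 1185 FPKM in Trpm5-/- cells and 862 FPKM in wild-type cells. Hsp90ab1, at 1078 and 847 FPKM without stimulus, reached 2.13 and 2.47 times these levels with LPS.

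All 8 TRiC subunits rose with LPS in both genotypes, by 1.17 to 1.66 in Trpm5-/- cells and 1.26 to 1.87 in wild-type cells. Cct3 had 944 and 966 FPKM with LPS and 310 and 292 FPKM without stimulus in Trpm5-/- cells (1.66 ± 0.05, adjusted p = 2.11e-09). In wild-type cells Cct3 had 915 and 948 FPKM with LPS and 258 and 249 FPKM without stimulus (1.87 ± 0.05, adjusted p = 1.02e-09). Cct6a rose by 1.62 ± 0.07 (adjusted p = 8.45e-09) in Trpm5-/- cells and 1.87 ± 0.07 (adjusted p = 3.05e-09) in wild-type cells. The summed FPKM of the 8 subunits was 5603 ± 37.5 in Trpm5-/- cells and 5249 ± 121 in wild-type cells with LPS, 3497 ± 5.49 and 3075 ± 20.1 with anti-IgM, and 2006 ± 84.2 and 1648 ± 29.5 without stimulus. The subunits of this complex, which in the protein occur in equal numbers, had transcript levels of a like order: the highest, Cct5, was 2.51 to 2.83 times the lowest subunit in every group.

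Both HSP90 genes rose with either stimulus. Hsp90ab1 had 2314 and 2289 FPKM in Trpm5-/- cells and 2023 and 2156 FPKM in wild-type cells with LPS, responses of 1.09 ± 0.05 (adjusted p = 3.28e-08) and 1.30 ± 0.05 (adjusted p = 8.88e-09). Hsp90aa1 had 541 and 519 FPKM in Trpm5-/- cells and 459 and 458 FPKM in wild-type cells with LPS, responses of 1.5 ± 0.07 (adjusted p = 1.33e-08) and 1.57 ± 0.07 (adjusted p = 9.39e-09). Of the 8 HSP90 cochaperones all rose with LPS in both genotypes. Fkbp5, an immunophilin related to Fkbp4 and a target of glucocorticoids, was the least abundant of them, with 13 and 14.8 FPKM in Trpm5-/- cells and 14.4 and 13.2 FPKM in wild-type cells with LPS. It rose by 0.53 ± 0.12 (adjusted p = 0.0024) in Trpm5-/- cells and by 0.67 ± 0.12 (adjusted p = 0.00053) in wild-type cells. Ahsa1, the activator of the HSP90 ATPase, rose by 1.31 and 1.30 in Trpm5-/- and wild-type cells. Cdc37, which brings kinases to HSP90, rose by 1.19 in Trpm5-/- cells and 1.12 in wild-type cells, and Chordc1 by 1.0 in Trpm5-/- cells and 0.90 in wild-type cells.

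The HSP70 partners were more varied. Hspa4, an HSP110 exchange factor, had 209 and 217 FPKM in Trpm5-/- cells and 196 and 216 FPKM in wild-type cells with LPS, responses of 1.32 ± 0.06 (adjusted p = 2.51e-08) and 1.42 ± 0.06 (adjusted p = 1.44e-08). Dnaja2 rose with LPS by 1.27 in Trpm5-/- cells and 1.30 in wild-type cells, and Dnaja1, a farnesylated J-domain protein, by 1.03 and 1.01. Bag1, an exchange factor that also binds BCL2, rose by 0.68 in Trpm5-/- cells and 0.75 in wild-type cells. Hspa14, an HSP70 relative that binds the ribosome, had 83.9 and 85.3 FPKM in Trpm5-/- cells and 80.4 and 89.0 FPKM in wild-type cells with LPS, responses of 0.41 ± 0.06 (adjusted p = 0.000111) and 0.49 ± 0.06 (adjusted p = 2.83e-05). In mitochondria, the J-domain protein Dnaja3 rose with LPS by 0.96 in Trpm5-/- cells and 0.97 in wild-type cells. Pfdn2, a prefoldin subunit, rose by 1.65 in Trpm5-/- cells and 1.56 in wild-type cells.

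**Figure D4:**
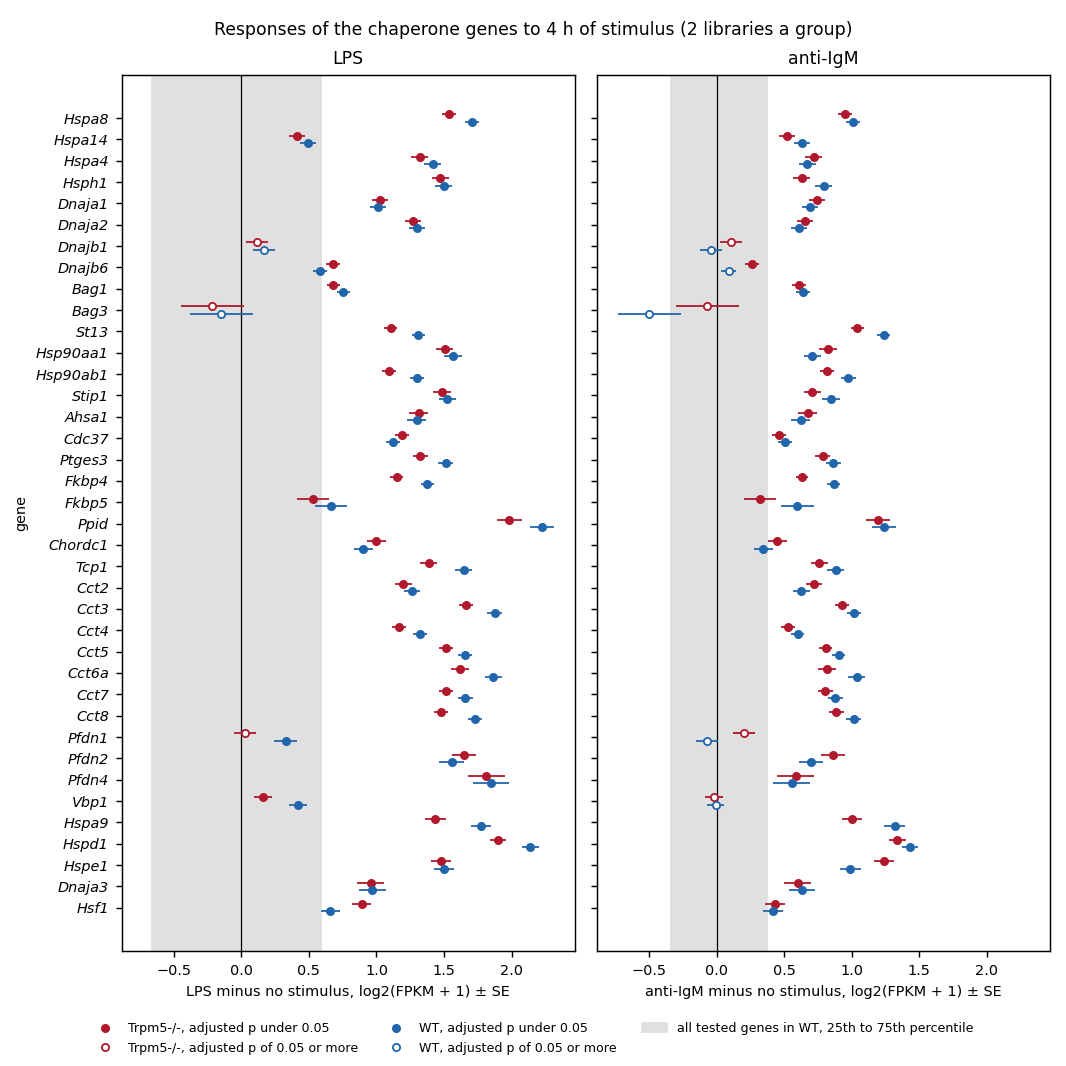
Response of each chaperone gene to LPS (left) and to anti-IgM (right), in log2(FPKM + 1) with its standard error, in Trpm5-/- (red) and wild-type cells (blue); filled points have an adjusted p under 0.05 and the grey bands span the 25th to 75th percentile of all tested genes in wild-type cells. Ppid, at 2.23, and Hspd1, at 2.14, lie farthest right with LPS in wild-type cells, and Dnajb1 and Bag3 are open in both panels.

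Anti-IgM also raised most of the chaperone genes. In Trpm5-/- cells 34 of the 38 were higher than without stimulus and 0 were lower, against 26.9% higher and 23% lower among all tested genes. In wild-type cells 33 were higher and 0 lower, against 27.7% and 20.9%. The median difference was 0.71 in Trpm5-/- cells and 0.69 in wild-type cells, and 5 genes in Trpm5-/- cells and 8 in wild-type cells reached a difference of 1. Over all tested genes the 95th percentile was 0.95 in Trpm5-/- cells and 1.02 in wild-type cells. The mitochondrial chaperones led, with a median of 1.12 in Trpm5-/- cells and 1.15 in wild-type cells over 4 genes. Hspd1 rose by 1.34 ± 0.06 (adjusted p = 1.19e-07) in Trpm5-/- cells and by 1.43 ± 0.06 (adjusted p = 6.58e-08) in wild-type cells. Hspa9 had 395 and 378 FPKM with anti-IgM in Trpm5-/- cells and, likewise with anti-IgM, 373 and 352 FPKM in wild-type cells, differences of 1.0 ± 0.07 (adjusted p = 2.18e-06) and 1.32 ± 0.07 (adjusted p = 2.94e-07). Of the cytosolic genes, Ppid rose by 1.20 ± 0.09 (adjusted p = 2.14e-06) in Trpm5-/- cells and 1.24 ± 0.09 (adjusted p = 1.54e-06) in wild-type cells. St13 had 204 and 208 FPKM with anti-IgM in Trpm5-/- cells (1.04 ± 0.05, adjusted p = 1.21e-07) and 182 and 181 FPKM with anti-IgM in wild-type cells (1.23 ± 0.05, adjusted p = 5.62e-08). The responses to LPS and to anti-IgM were measured against the same unstimulated libraries, and 33 of the 38 genes passed as higher in all 4 of these comparisons. The share of all tested genes that passed in all 4 was not counted. Several marker lists stood outside their unstimulated ranges with anti-IgM too. Among them, the sums given above for the pan-B and follicular markers and for Malat1 and Neat1 were lower than without stimulus in both genotypes. Ccr7, a follicular marker, went the other way, from 445 to 616 FPKM in Trpm5-/- cells and from 490 to 644 FPKM in wild-type cells. So did the pan-B marker Blk, from 138 to 155 FPKM and from 128 to 159 FPKM. The 4 dendritic cell markers summed to 10.8 to 13.1 FPKM with anti-IgM in Trpm5-/- cells and, with the same antibody, to 14.3 to 14.5 FPKM in wild-type cells. Their part was not tested.

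Set against each other directly, LPS gave the higher chaperone levels. With LPS against anti-IgM, 31 of the 38 passed as higher among Trpm5-/- libraries and 32 among wild-type libraries, and 0 passed as lower in either. The background for Trpm5-/- cells was 28.3% of all tested genes higher and 23.6% lower, and that for wild-type cells was 27.7% higher and 25% lower. The median difference was 0.56 in Trpm5-/- cells and 0.64 in wild-type cells, and it was 0.27 and 0.31 after quantile normalization. Scaling to equal sums moved the median of all tested genes to -0.16 in Trpm5-/- cells and -0.23 in wild-type cells, and the 38 genes then stood 0.50 and 0.60 above it. Pfdn4 stood apart most, with 1.23 ± 0.14 (adjusted p = 3.56e-05) in Trpm5-/- cells and 1.29 ± 0.14 (adjusted p = 2.47e-05) in wild-type cells. All 8 TRiC subunits passed in both genotypes, with 0.48 to 0.80 in Trpm5-/- cells and 0.64 to 0.86 in wild-type cells. St13 did not pass, with 0.07 ± 0.05 (adjusted p = 0.27) in Trpm5-/- cells and 0.08 ± 0.05 (adjusted p = 0.208) in wild-type cells, and neither did Bag1, with 0.07 ± 0.05 (adjusted p = 0.244) and 0.12 ± 0.05 (adjusted p = 0.0708), or Hspa14, with -0.11 ± 0.06 (adjusted p = 0.153) and -0.13 ± 0.06 (adjusted p = 0.0799). Altogether 29 of the 38 genes were higher in all 4 comparisons with unstimulated cells and also higher with LPS than with anti-IgM in both genotypes. How many of all tested genes share this pattern was not counted.

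Partners and paralogs did not keep a fixed ratio of FPKM across the groups. The ratio of Hspd1 to Hspe1 was 1.43 and 1.63 in Trpm5-/- cells and 1.49 and 1.48 in wild-type cells with LPS. It was 1.23 and 1.21 in Trpm5-/- cells and 1.32 and 1.26 in wild-type cells with anti-IgM, and 1.17 and 1.11 in Trpm5-/- cells and 0.930 and 0.970 in wild-type cells without stimulus. These genes stand head to head on chromosome 1, with Hspd1 at 55077835 to 55088243 on the minus strand and Hspe1 at 55088132 to 55091307 on the plus strand (mm10), and the annotated ranges share 112 bases, where fragments from either strand cannot be assigned because the library kit does not mark strand. The ratio of Hsp90aa1 to Hsp90ab1 was 0.234 and 0.227 in Trpm5-/- cells and 0.227 and 0.212 in wild-type cells with LPS, 0.175 and 0.173 in Trpm5-/- cells and 0.154 and 0.150 in wild-type cells with anti-IgM, and 0.181 and 0.165 in Trpm5-/- cells and 0.192 and 0.173 in wild-type cells without stimulus. The inducible HSP90 thus formed a larger share with LPS than with anti-IgM in all libraries. No test was made of these ratios.

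Few of the chaperone genes failed to respond, and they included genes best known from heat shock. Dnajb1, the J-domain protein HSP40, had 37.7 and 33.0 FPKM in Trpm5-/- cells and 38.1 and 34.8 FPKM in wild-type cells with LPS. With anti-IgM it had 35.7 and 34.3 FPKM in Trpm5-/- cells and 29.9 and 32.7 FPKM in wild-type cells, and without stimulus 32.8 and 32.2 FPKM in Trpm5-/- cells and 31.9 and 32.7 FPKM in wild-type cells. Dnajb1 passed in none of the comparisons, and its LPS response was 0.12 ± 0.08 (adjusted p = 0.233) in Trpm5-/- cells and 0.17 ± 0.08 (adjusted p = 0.0892) in wild-type cells. Bag3 stayed between 0.258 and 1.66 FPKM in all 12 libraries and passed in none of the comparisons either, at a level where few fragments stand behind each value. These 2 genes were the ones not called in any of the 4 comparisons with unstimulated cells.

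Of the 4 prefoldin subunits among the 38 genes, Pfdn1 and Vbp1 responded less than Pfdn2 and Pfdn4. Outside the 38, the prefoldin subunit Pfdn5 did not rise either. Its ratio of means to no stimulus was 0.839 in Trpm5-/- cells and 0.843 in wild-type cells with LPS, and 0.857 and 0.803 with anti-IgM. For Pfdn6 these ratios were 1.68 and 1.62 with LPS, and 1.33 and 1.23 with anti-IgM. Pfdn1 had 37.7 and 32.6 FPKM in Trpm5-/- cells and 43.2 and 44.1 FPKM in wild-type cells with LPS, and its response was 0.03 ± 0.08 (adjusted p = 0.775) in Trpm5-/- cells and 0.33 ± 0.08 (adjusted p = 0.0049) in wild-type cells. The interaction of genotype and LPS was -0.30 ± 0.12 for Pfdn1 (adjusted p = 0.415). Vbp1 rose with LPS by 0.16 ± 0.06 (adjusted p = 0.048) in Trpm5-/- cells and by 0.42 ± 0.06 (adjusted p = 0.000185) in wild-type cells, and its response to anti-IgM was -0.02 ± 0.06 (adjusted p = 0.829) and -0.01 ± 0.06 (adjusted p = 0.939). Dnajb6, a J-domain protein that holds back aggregation, rose with LPS in both genotypes and with anti-IgM passed in Trpm5-/- cells (0.26 ± 0.05, adjusted p = 0.0025) but not in wild-type cells (0.09 ± 0.05, adjusted p = 0.205). The interaction with anti-IgM was 0.17 ± 0.08 for Dnajb6 (adjusted p = 0.622).

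Hsf1, the transcription factor of the heat shock response, was itself raised by both stimuli. It had 69.6 and 72.4 FPKM in Trpm5-/- cells and 68.2 and 65.7 FPKM in wild-type cells with LPS. With anti-IgM it had 50.8 and 51.8 FPKM in Trpm5-/- cells and 52.8 and 60.3 FPKM in wild-type cells, and without stimulus 36.5 and 39.2 FPKM in Trpm5-/- cells and 41.6 and 42.4 FPKM in wild-type cells. It rose with LPS by 0.89 ± 0.07 (adjusted p = 1.37e-06) in Trpm5-/- cells and by 0.66 ± 0.07 (adjusted p = 1.41e-05) in wild-type cells, and with anti-IgM by 0.43 ± 0.07 (adjusted p = 0.000638) and by 0.42 ± 0.07 (adjusted p = 0.000773). The genotype difference of Hsf1 was not called in any condition (-0.15, 0.08 and -0.14 without stimulus, with LPS and with anti-IgM). Hsf1 protein is controlled chiefly after translation, which these data do not measure.

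**Figure D5:**
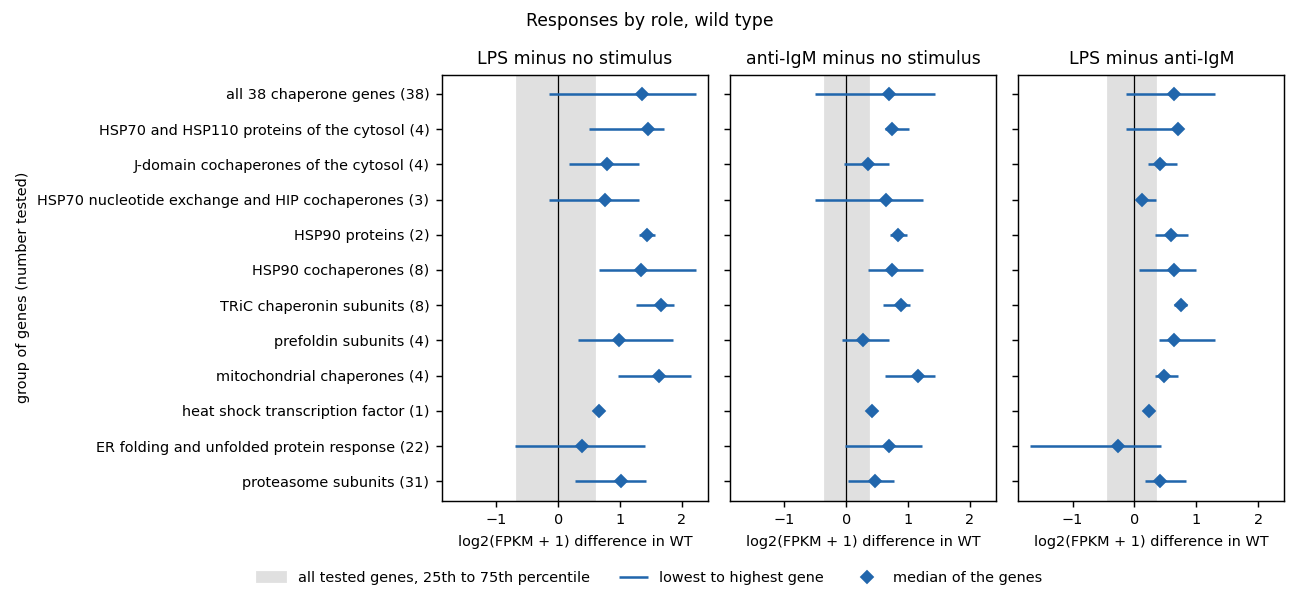
Responses in wild-type cells by role: median (diamond) and lowest to highest gene (line) of each group of chaperone genes, with genes of protein folding in the endoplasmic reticulum (ER) and proteasome subunits below, as log2(FPKM + 1) differences; grey bands span the 25th to 75th percentile of all tested genes. TRiC subunits have a median of 1.66 with LPS, and the ER genes are the group with a median below 0 (-0.26) for LPS against anti-IgM.

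Other chaperone and heat shock genes, 68 in 5 lists, moved in both directions, and 62 of them passed the filter. With LPS 34 rose and 10 fell in Trpm5-/- cells and 34 rose and 8 fell in wild-type cells, with a median of 0.35 in each, and with anti-IgM 29 rose and 4 fell in Trpm5-/- cells and 30 rose and 5 fell in wild-type cells. Between genotypes, 5 were higher and 0 lower in Trpm5-/- cells without stimulus, 0 higher and 1 lower with LPS, and 1 higher and 0 lower with anti-IgM. The 5 are 8.06% of the 62, against 4.45% higher among all tested genes, whereas the single calls with LPS and with anti-IgM are 1.61% each, near the backgrounds of 1.78% lower with LPS and 1.91% higher with anti-IgM. Of the 5 calls without stimulus, 4 were in the list of HSP90 partners and complex assembly: Nudc (0.26 ± 0.05, adjusted p = 0.0151), Ruvbl2 (0.28 ± 0.07, adjusted p = 0.0427), Tomm70a (0.25 ± 0.06, adjusted p = 0.0416) and Ruvbl1 (0.23 ± 0.06, adjusted p = 0.0477). The fifth was Hspbp1, an HSP70 exchange factor (0.28 ± 0.06, adjusted p = 0.0216). With LPS in wild-type cells these 4 genes rose as well, by 1.43 to 1.90. Of 10 other mitochondrial chaperones and proteases 9 rose, with a median of 0.72, against 35% higher among all tested genes.

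The stress-inducible HSP70 genes behaved unlike the constitutive Hspa8. Hspa1a had 10.9 and 9.68 FPKM in Trpm5-/- cells and 15.2 and 18 FPKM in wild-type cells with LPS, a difference of -0.64 ± 0.13 (adjusted p = 0.0229). Without stimulus it had 10.8 and 9.31 FPKM in Trpm5-/- cells and 13.1 and 11.1 FPKM in wild-type cells, so that it rose with LPS in wild-type cells (0.43 ± 0.13, adjusted p = 0.012) and gave 0.03 ± 0.13 (adjusted p = 0.858) in Trpm5-/- cells. Its near-identical neighbour Hspa1b differed by -0.40 ± 0.14 with LPS (adjusted p = 0.171), and the sources used here do not say how fragments matching both genes were divided. The interaction with LPS was -0.40 ± 0.18 for Hspa1a (adjusted p = 0.484). Hspa4l, an HSP110 relative of Hspa4, fell with LPS by 2.06 ± 0.16 (adjusted p = 9.95e-07) in Trpm5-/- cells and by 1.87 ± 0.16 (adjusted p = 2.04e-06) in wild-type cells, and rose with anti-IgM by 0.62 ± 0.16 (adjusted p = 0.00831) and by 0.69 ± 0.16 (adjusted p = 0.00451).

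Folding genes of the ER and proteasome subunits place the chaperone responses beside those of the neighbouring stages of protein quality control. With LPS against anti-IgM, 3 of 22 ER genes passed as higher and 11 as lower in Trpm5-/- cells, and 4 as higher and 12 as lower in wild-type cells, with medians of -0.21 and -0.26. The proteasome subunits went the way of the cytosolic chaperones, with 29 of 31 higher in Trpm5-/- cells and 31 of 31 in wild-type cells and medians of 0.41 and 0.42. Between genotypes without stimulus, 7 of the 22 ER genes and 4 of the 31 proteasome subunits were higher in Trpm5-/- cells and 0 were lower. The background was 4.45% of all tested genes higher and 1.66% lower. No test of the difference between these lists and the 38 chaperone genes was made.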

How the data were processed

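RNA of 12 libraries in 6 groups of 2 was analysed. Per the labels' protocols, total RNA became full-length cDNA (SMART-Seq HT) and unstranded Nextera libraries. Per the submitters' processing notes, the tools were Cufflinks 2.2.1, TopHat2 2.0.13, SAMtools 0.1.19 and Bowtie2 2.2.3, and the build mm10. No source used here names the gene annotation. The deposited values carry no unit and were taken as FPKM made by the authors, since Cufflinks is named and low values step by 1 fragment; how many fragments stand behind them is unknown, so no counting interval is given. FPKM of genes with pseudogenes or near-identical copies, common among chaperones, and of Hspd1, Hspe1, Dnaja1, Dnajb6, Cct6a, Cct7, Cct8, Tcp1, Pfdn2, Pfdn4 and Dnaja3, whose exons overlap a gene on the opposite strand, are uncertain to the extent that fragments were shared.

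Values were analysed as log2(FPKM + 1), which understates changes of low genes, for every symbol that reached 1 FPKM in 2 or more libraries. The model held 1 mean per group, fitted to the 12 libraries together (limma 3.58.1, R 4.3.3, eBayes with trend, 6 residual degrees of freedom, checked on simulated data) gave 11 comparisons. Tests were 2-sided and Benjamini-Hochberg adjusted over all tested genes, with a threshold of 0.05. Errors are SE of the model for log2 differences and SD of 2 libraries for FPKM. Medians over the chaperone genes are descriptions. No library was dropped, and the files hold no further columns of samples.

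Named were members called between genotypes, the 6 members with the largest called response to each stimulus in wild-type cells, Hsf1, the highest and lowest member, and up to 4 genes of smallest p in each other list; the remaining members lie outside this rule and were described after their values were seen. The members and all lists were chosen with earlier results of these data known. Positions are from GENCODE M21 and sequences from RefSeq (GRCm38.p6). Alternatives were a pseudocount of 0.1, no filter, a mean of at least 5 FPKM, quantile normalization, equal sums, median-ratio scaling, a replicate block, the compared libraries alone and leaving out each library.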

Additional observations from a re-analysis of the deposited data

Results flagged for a closer look

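For 5 chaperone genes, every Trpm5-/- library lay on one side of every wild-type library in one condition and on the opposite side in another. Each value is the genotype difference (Trpm5-/- minus wild type, log2) in the condition named first minus that in the condition named next. Between no stimulus and anti-IgM this difference was 0.1079 for Hspa14, -0.1715 for Dnajb6 and 0.2342 for Fkbp4. The interaction term of the model covers the same contrasts and gave adjusted p of 0.778 for Hspa14, 0.622 for Dnajb6 and 0.482 for Fkbp4 in limma, so none passed. Between no stimulus and LPS it was -0.2310 for Hsf1, where the interaction term gave an adjusted p of 0.476.

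Between LPS and anti-IgM the difference was -0.5720 for Pfdn1, with a genotype difference of -0.31 ± 0.08 with LPS and 0.27 ± 0.08 with anti-IgM (SE). For Hsf1 it was 0.2191 between LPS and anti-IgM. These differences between LPS and anti-IgM were not tested. With 2 libraries a group, sides that do not overlap are common: with LPS both Trpm5-/- libraries lay above both wild-type libraries for 26.5% of all tested genes.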

How the results depend on the processing

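The genotype counts depended on the processing and the stimulus counts did not. Without stimulus the 17 calls became 10 after quantile normalization and 1 with the compared libraries alone, and 3 to 16 when 1 library was left out. With LPS the 1 call became 0 after quantile normalization, 0 with the compared libraries alone and 0 to 1 with 1 library left out. With anti-IgM the 5 calls became 2 after quantile normalization, 3 after scaling to equal sums and 1 to 6 with 1 library left out. A group then left with 1 library is assumed to vary like the others. The cause of these changes was not tested. The 6 counts for LPS, anti-IgM and LPS against anti-IgM stayed within 1.5 times of the reported ones under every alternative, and the 2 interaction counts stayed at 0. Bag3, near the low-value limit, changed sign. After quantile normalization its response was 0.1904 to LPS in Trpm5-/- cells, 0.2877 to LPS in wild-type cells and 0.1163 to anti-IgM in Trpm5-/- cells. With 1 library left out its genotype difference ranged from -0.0313 to 0.4612 without stimulus and from -0.0327 to 0.3251 with LPS. Its response then ranged from -0.3945 to 0.0980 to LPS in wild-type cells and from -0.2083 to 0.0665 to anti-IgM in Trpm5-/- cells. With the replicate number as a block, the counts were 16, 1 and 5 between genotypes without stimulus, with LPS and with anti-IgM. Over 15 pairs of groups, the correlation of the deviations of same-numbered libraries lay between -0.172 and 0.199, and 3 were above 0.1. Low correlations of this kind cannot exclude that a number marks a shared mouse or day, which the labels do not say. Few fragments stand behind the values of Bag3 and Trpm5, which limits what can be said of them.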
